A study of Arabidopsis thaliana with 18 samples.

Results

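The genes rpoA, rpoB, rpoC1 and rpoC2 lie on the chloroplast genome and encode the core subunits of the plastid-encoded RNA polymerase. The genes were found by annotation, as chloroplast locus tags (those beginning ArthCp) named rpo with a probe set paired with 1 gene. All 4 were found, each with 1 probe set, among 63 measured plastid genes and 5690 genes tested in all. The set was selected on its signals in the 8 groups of these same arrays, so its levels and differences are given as a description and support no test.

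The plastid-encoded polymerase is a bacterial-type enzyme. The rpoA product is the alpha subunit on which the enzyme assembles, rpoB encodes the beta subunit, and rpoC1 and rpoC2 encode the beta' and beta'' subunits, the parts that bacteria carry as a single beta' chain. The enzyme transcribes photosynthesis genes in green plastids, guided by nuclear-encoded sigma factors. The rpoB, rpoC1 and rpoC2 genes form an operon that a separate nuclear-encoded, phage-type polymerase transcribes, whereas rpoA lies elsewhere, in a cluster of ribosomal protein genes. In the TAIR10.1 assembly table the order along the plastid is rps2, rpoC2, rpoC1, rpoB, petN, and rpoA lies beside petD.

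RNA of whole Arabidopsis thaliana plants, aged 4 weeks and kept in 8 h light and 16 h dark at 22 °C, was hybridised to 18 Affymetrix Arabidopsis Gene 1.0 ST arrays. The 4 genotypes were wild-type Col-0 (Col), phyB-9 (phyb, which lacks phytochrome B, a receptor of red light), jaz10 (a mutant of a repressor of jasmonate signalling, allele not given) and the double mutant jaz10phyB-9 (jaz10phyb). Each was sprayed with 250 µM methyl jasmonate (MeJA, a form of the wound hormone jasmonate) or with water (control) and taken after 3 h. Both phyb groups hold 3 arrays and the remaining 6 groups 2 arrays, each of a pool of at least 4 plants. The labels do not say whether pools were grown separately, so SE and p measure the spread between these pools. In whole-plant RNA, fewer cells of a type and less RNA per cell cannot be told apart.

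Values are signal intensities on a linear scale, with array medians between 14.87 and 17.5. The transcripts of rbcL and psbA, markers of green tissue, had mean signals of 14229 and 13591. As a check of the treatment labels, a score was taken per array as the mean log2 signal of 468 genes raised minus that of 369 genes lowered by MeJA in Col. It was 0.623 in phyb control 2, where phyb control 1 and 3 had -0.783 and -0.632. It was -0.693 in phyb MeJA 3, where phyb MeJA 1 and 2 had 0.674 and 0.266. Both arrays went against their labels, so the differences, correlations and ranks of the polymerase genes that rest on them are also given without them, while group means, their order and the plots hold all arrays.

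In the Col control arrays rpoB had signals of 3969.6 and 4018, and in the Col MeJA arrays 3558 and 3602. In jaz10 it had 4013 and 3940.1 in control arrays and 3688 and 3375 after MeJA. In jaz10phyb it had 3499 and 3605 in control arrays and 3337 and 3171 after MeJA. In these 3 genotypes every MeJA array lay below every control array of the same genotype. In Col, jaz10 and jaz10phyb 34.9%, 37.9% and 38.3% of all genes tested were lower in this way. The jaz10phyb control arrays of rpoB already stood at the level of the Col MeJA arrays. In phyb the control arrays had 4010.45, 3819.9 and 4035, and the MeJA arrays 3922, 4033 and 4197, so the groups overlapped. The lowest phyb control value (array 2) and the highest phyb MeJA value (array 3) were those of the doubtful arrays.

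The group means of rpoB ran from 4050.3 ± 138 (SD, n = 3) in phyb MeJA through Col control, jaz10 control and phyb control to Col MeJA, jaz10phyb control, jaz10 MeJA and, lowest, 3254 ± 118 (SD, n = 2) in jaz10phyb MeJA. Neighbours in this order differed by more than the pooled SD of 0.046 (log2) at 2 steps. These were the step of 0.14 from phyb control to Col MeJA and that of 0.12 from jaz10 MeJA to jaz10phyb MeJA. At the other steps the neighbours lay within that SD.

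For rpoC2 the Col control arrays had 4988 and 5241, and the Col MeJA arrays 4569 and 4617. In jaz10 the values were 5295 and 4969 in control arrays and 4651 and 4519 after MeJA. In jaz10phyb they were 4802 and 4626, and 4366 and 3948 after MeJA. As for rpoB, the treated arrays lay below the control arrays in these 3 genotypes, where 34.9%, 37.9% and 38.3% of all genes tested did. In phyb rpoC2 had 5110.4, 5101 and 4926 in control arrays and 4672, 5032 and 5239.6 after MeJA, with overlap. Group means ran from 5132 ± 231 (SD, n = 2) in jaz10 control to 4157 ± 295 (SD, n = 2) in jaz10phyb MeJA. The pooled SD was 0.06 (log2), and neighbours in the order differed by more than it from phyb MeJA to jaz10phyb control (0.08) and from jaz10 MeJA to jaz10phyb MeJA (0.14).

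The rpoC1 probe set gave the widest spread within groups of the 4, with a pooled SD of 0.094 (log2). It had 2945 and 3013 in Col control arrays and 2574 and 2831 after MeJA, 2947 and 2866 in jaz10phyb control arrays and 2864.5 and 2483 after MeJA. In both genotypes the treated arrays were the lower ones, where 34.9% and 38.3% of all genes tested were. In jaz10phyb the gap between the nearest arrays was less than 2 signal units. In jaz10 rpoC1 had 2750.1 and 3291 in control arrays and 3119.7 and 2877 after MeJA, with overlap. In phyb the control arrays had 2825, 3098 and 3074 and the MeJA arrays 3475, 3234 and 3318. Here every treated array was the higher, where 2.36% of all genes tested were. The phyb MeJA group was the highest of the 8, at 3342 ± 122 (SD, n = 3), a step of 0.15 above jaz10 control. The next step beyond the pooled SD, of 0.11, was from jaz10phyb control to Col MeJA.

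The alpha subunit gene rpoA varied least between groups. Its arrays had 5717 and 5609 in Col control, 5461 and 5647 in Col MeJA, 5357 and 5712 in jaz10 control, and 5981 and 5329 in jaz10 MeJA. In jaz10phyb they had 5582 and 5659 in control arrays and 5741 and 5243 after MeJA. The phyb arrays had 5185, 5452 and 5239 in control and 5338, 5319 and 5253 after MeJA. The group means spanned 0.098 on the log2 scale for rpoA, against 0.316, 0.325 and 0.305 for rpoB, rpoC1 and rpoC2, and no step between neighbouring groups of rpoA was over its pooled SD of 0.056. Over all arrays the highest signal was 1.15 times the lowest for rpoA, and 1.32, 1.4 and 1.34 times for rpoB, rpoC1 and rpoC2.

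**Figure D1:**
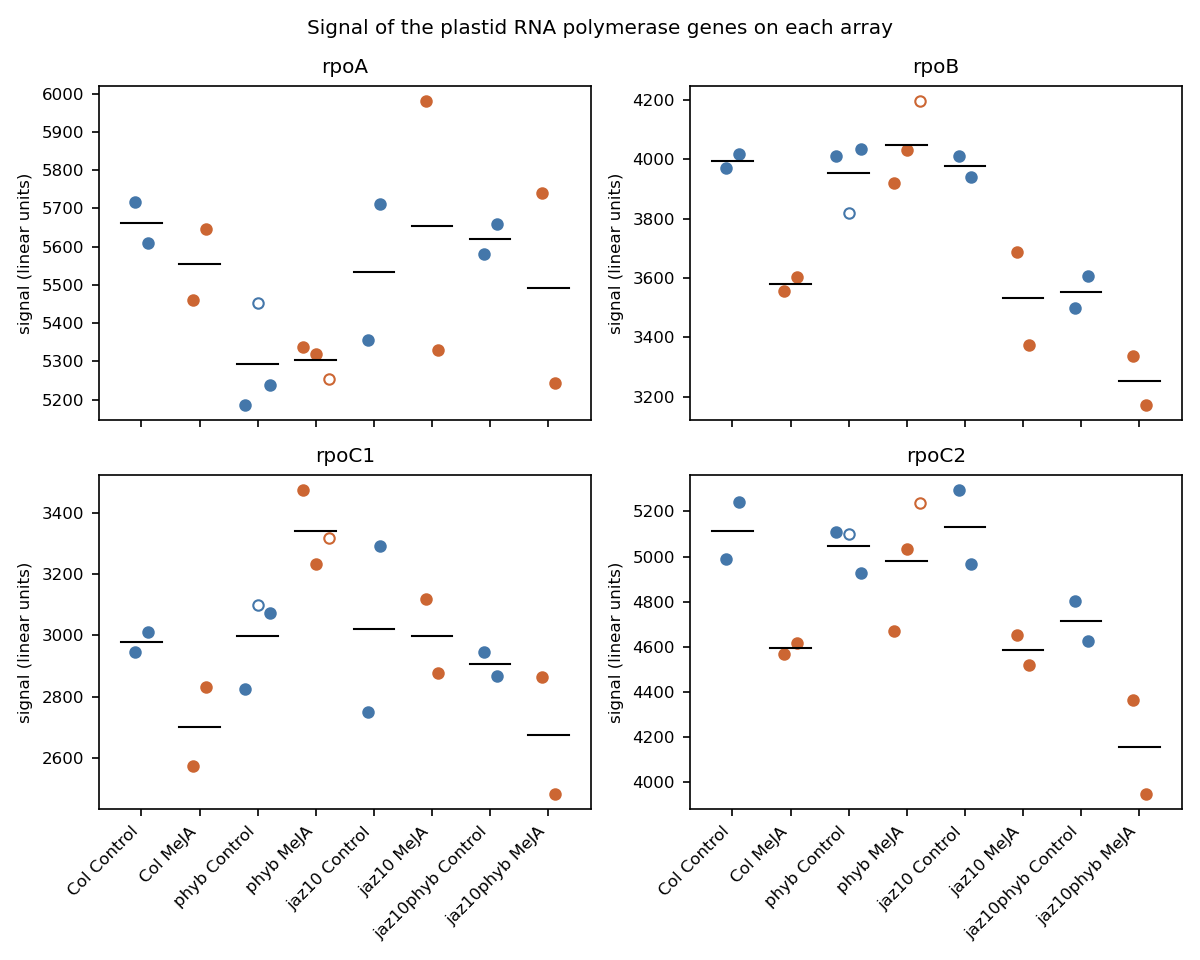
Signal of each gene (vertical axes, linear units, not starting at 0) on each of the 18 arrays by group. Blue points are control arrays, orange points MeJA arrays, open points phyb control 2 and phyb MeJA 3, and bars the group means. For rpoB and rpoC2 the MeJA arrays of Col, jaz10 and jaz10phyb lie below the control arrays, where 34.9%, 37.9% and 38.3% of all genes tested do. For rpoC1 the phyb MeJA group has the highest mean, with arrays at 3234 to 3475.

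The first comparison was of MeJA with control within each genotype, on log2(signal + 1). In Col the difference was -0.16 ± 0.085 for rpoB, -0.14 ± 0.11 for rpoC1 and -0.15 ± 0.091 for rpoC2 (SE, n = 2 arrays per group), which as percentages of the control signal are -10.4%, -9.37% and -10.2%, and -0.03 ± 0.089 for rpoA. Of the 4 genes, 3 had no overlap between the Col groups and were lower, where 34.9% of all genes tested were lower and 30.6% higher without overlap. Their median difference was -0.15, beside -0.02 over all genes tested. Without Col MeJA 1 the rpoC1 value was -0.07. The SE comes from limma, which moderates each gene's spread towards that of all genes. For each of the 4 genes it was larger than the gene's own pooled SD gives.

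In jaz10 the differences were -0.17 ± 0.085 for rpoB and -0.16 ± 0.091 for rpoC2, against -0.01 ± 0.11 for rpoC1 and 0.03 ± 0.089 for rpoA (SE, n = 2 arrays per group). Of the 4 genes, 2 were lower without overlap, where 37.9% of all genes were (24.6% higher), and the median was -0.08 beside -0.05 over all genes. In jaz10phyb they were -0.13 ± 0.085, -0.12 ± 0.11 and -0.18 ± 0.091 for rpoB, rpoC1 and rpoC2, and -0.03 ± 0.089 for rpoA (SE, n = 2 arrays per group). Of the 4 genes, 3 were lower without overlap, where 38.3% of all genes were (20% higher), and the median was -0.13 beside -0.08 over all genes. In jaz10 the rpoB value was -0.11 without jaz10 MeJA 2, while with 1 array left out rpoC1 ran from -0.14 (without jaz10 control 1) to 0.12 (without jaz10 control 2) and rpoA from -0.05 (without jaz10 MeJA 1) to 0.11 (without jaz10 MeJA 2). In jaz10phyb rpoC1 and rpoC2 were at -0.02 and -0.11 without jaz10phyb MeJA 2 and at -0.23 and -0.26 without jaz10phyb MeJA 1. In jaz10 against Col in control arrays, also with 2 arrays per group, 17.2% of all genes were lower and 17.2% higher without overlap. For rpoB and rpoC2 the sign held in Col, jaz10 and jaz10phyb under each of the 8 alternative settings. Only the pseudocount, centring and quantile normalization could alter these values, and the other settings returned them unchanged. For rpoB the values lay between -0.25 and -0.08 in Col, -0.17 and -0.08 in jaz10, and -0.13 and -0.05 in jaz10phyb. For rpoC2 they lay between -0.24 and -0.12 in Col, -0.16 and -0.07 in jaz10, and -0.18 and -0.11 in jaz10phyb.

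In phyb the pattern was different in sign for rpoC1, which had a difference of 0.16 ± 0.09 with all arrays and of 0.19 ± 0.12 without the 2 doubtful arrays. For rpoB the values were 0.03 ± 0.069 and -0.02 ± 0.09, for rpoC2 -0.02 ± 0.074 and -0.05 ± 0.095, and for rpoA 0 ± 0.073 and 0.03 ± 0.096 (SE, n = 3 arrays per group with all arrays and 2 without). Of the 4 genes, rpoC1 was higher without overlap, where 2.36% of all genes were (3.97% lower). Without the doubtful arrays rpoA and rpoC1 were, where 23% of all genes were (36.5% lower). The median was 0.02 beside -0.03 over all genes. A direct test of the difference in response between phyb and the other genotypes was not made for these genes.

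**Figure D2:**
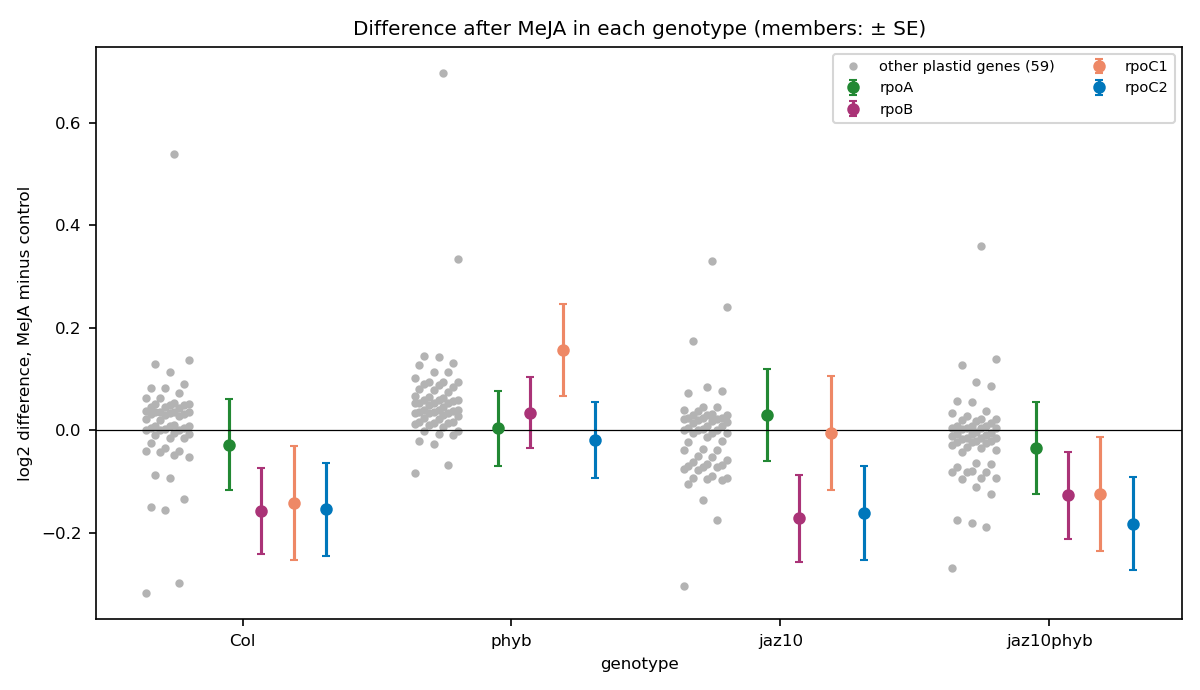
Log2 difference between MeJA and control arrays (vertical axis) in each genotype, with all arrays. Coloured points are the 4 genes with SE bars and grey points the other 59 plastid genes without error. The points of rpoB and rpoC2 lie between -0.13 and -0.18 in Col, jaz10 and jaz10phyb, and at 0.03 and -0.02 in phyb.

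Within each treatment the mutants were then compared with Col. In control arrays jaz10phyb had less rpoB (-0.17 ± 0.085) and rpoC2 (-0.12 ± 0.091) than Col, with every jaz10phyb array below every Col array, and values of -0.04 ± 0.11 for rpoC1 and -0.01 ± 0.089 for rpoA (SE, n = 2 arrays per group). That is 2 of 4 genes lower without overlap, where 24.2% of all genes were (20.6% higher). The sign of rpoB and rpoC2 was the same under the 8 alternative settings. Of these settings, only the pseudocount, centring and quantile normalization could alter the values. In the single mutants the values of these genes in control arrays were nearer 0. In phyb the differences were -0.01 ± 0.077 for rpoB, 0.01 ± 0.1 for rpoC1 and -0.02 ± 0.083 for rpoC2, and without the 2 doubtful arrays 0.01 ± 0.09, -0.02 ± 0.116 and -0.03 ± 0.095, so that the signs of rpoB and rpoC1 turned. In jaz10 they lay between -0.03 and 0.01 for all 4 genes, which overlapped in each case (17.2% of all genes lower and 17.2% higher without overlap). For rpoA the phyb control arrays differed from the Col control arrays by -0.1 ± 0.081 (SE, n = 3 and 2 arrays), and by -0.12 ± 0.096 without the 2 doubtful arrays. It was the 1 gene of 4 lower without overlap there, where 16.5% of all genes were (13% higher), and again without those arrays (23.4% of all genes lower and 20.1% higher).

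After MeJA the phyb arrays had more rpoB (0.18 ± 0.077), rpoC1 (0.31 ± 0.1) and rpoC2 (0.12 ± 0.083) than the Col arrays, without overlap (SE, n = 3 and 2 arrays). These 3 of 4 genes stood where 12% of all genes were higher without overlap. Without the 2 doubtful arrays the values were 0.15 ± 0.09, 0.31 ± 0.12 and 0.08 ± 0.095, again without overlap (14.9% of all genes higher and 30.1% lower). All 3 signs held under the 8 settings, of which the filters and the use of all probe sets could not alter the values. For rpoA the value was -0.07 ± 0.081, also without overlap (20% of all genes lower), and -0.06 ± 0.096 without the doubtful arrays. It turned to 0.05 when each array was centred on its median. In jaz10phyb rpoB and rpoC2 differed from the Col MeJA arrays by -0.14 ± 0.085 and -0.15 ± 0.091, 2 of 4 genes where 35.6% of all genes were lower and 15.4% higher without overlap, but these signs turned (0.03 and 0.02) when each array was centred. That centring used the median of all 38408 probe sets of an array. It moved the median of all genes tested by 0.17 in this comparison. Relative to that median of genes, rpoB and rpoC2 were at -0.06 and -0.07 with and without centring. Centring moved the median of genes by 0.12 for phyb and 0.14 for jaz10 against Col after MeJA. In jaz10 the rpoC1 difference from Col after MeJA was 0.15 ± 0.11 and the 1 of 4 higher without overlap, where 18.4% of all genes were (28.3% lower). Without Col MeJA 1 it was 0.08, and without jaz10phyb MeJA 2 the rpoC2 value of jaz10phyb against Col was -0.07.

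**Figure D3:**
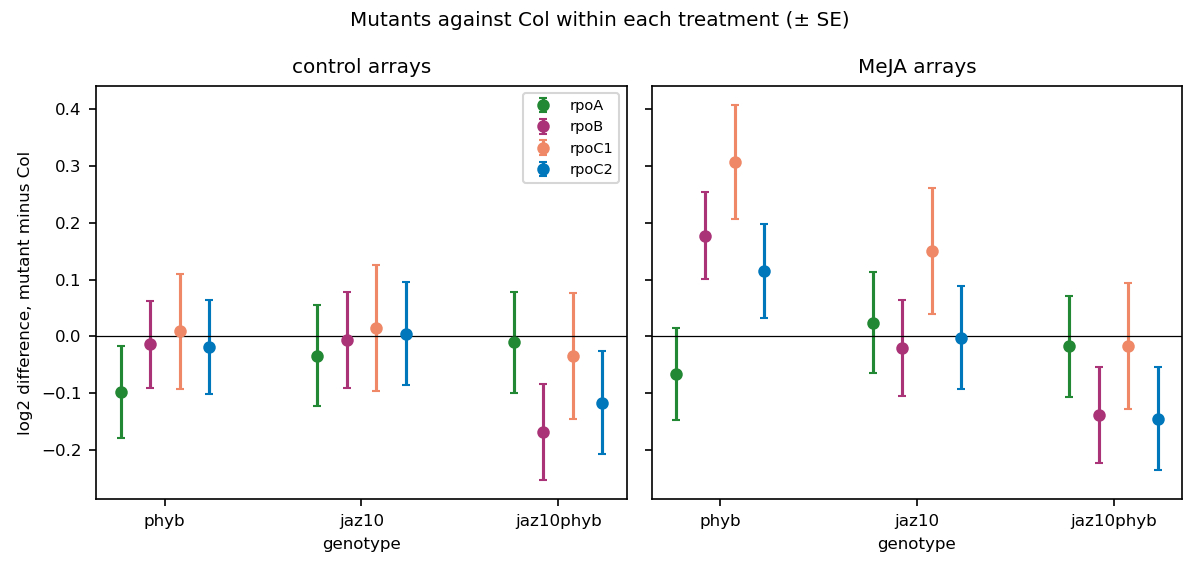
Log2 difference between each mutant and Col (vertical axis), with SE bars, in control arrays (left) and MeJA arrays (right), with all arrays and values as deposited. In control arrays rpoB stands at -0.17 in jaz10phyb and near 0 in phyb and jaz10. In MeJA arrays rpoC1 stands at 0.31 in phyb, and the negative values of rpoB and rpoC2 in jaz10phyb turn to 0.03 and 0.02 when arrays are centred.

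None of the 40 differences, 4 genes in 10 comparisons, passed limma's adjusted p of 0.05 over all genes, and 2 had an unadjusted p under 0.05 (rpoB and rpoC1 in phyb against Col after MeJA). The lowest adjusted p in limma was 0.184, for rpoC1 in the latter comparison. Without the 2 doubtful arrays the count in limma was also 0. The share of all genes called was 14.7% for MeJA in Col, 8.73% in jaz10, 0.0351% in jaz10phyb and 0% in phyb (198 genes at an unadjusted p under 0.05). Against Col it was 0.475% for phyb, 0.228% for jaz10phyb and 0% for jaz10 (181 genes at an unadjusted p under 0.05) in control arrays, and 0.967%, 0.492% and 0.0527% after MeJA. Without the 2 doubtful arrays it was 1.02%, 1.39% and 0.0351% in control arrays and 2.81%, 3.25% and 0.0879% after MeJA. Because the genes were proposed with these values known, the counts describe the fit and nothing is read from them.

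Over all arrays the genes of the rpoB operon varied more alike than any of them did with rpoA, but not in their deviations within groups. Over the 18 arrays the correlation of log2 signals was 0.901 between rpoB and rpoC2, 0.63 between rpoB and rpoC1 and 0.504 between rpoC1 and rpoC2. With rpoA it was -0.196 for rpoB, 0.0811 for rpoC1 and -0.107 for rpoC2. Without the doubtful arrays the values were 0.9, 0.58 and 0.435 within the operon and -0.11, 0.195 and -0.0197 with rpoA. Once each array was taken as its deviation from its group mean, the correlation was 0.559 between rpoB and rpoC2, 0.148 between rpoB and rpoC1, near 0 between rpoC1 and rpoC2, and 0.795 between rpoA and rpoC1. Between rpoA and rpoB this correlation was 0.407, and 0.759 without the doubtful arrays, where rpoB and rpoC2 had 0.566, rpoB and rpoC1 0.319 and rpoA and rpoC1 0.788. Over the 8 group means rpoB and rpoC1 had 0.77, and 0.691 without those arrays. Points of these correlations share an array and its scaling, and no p is given.

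**Figure D4:**
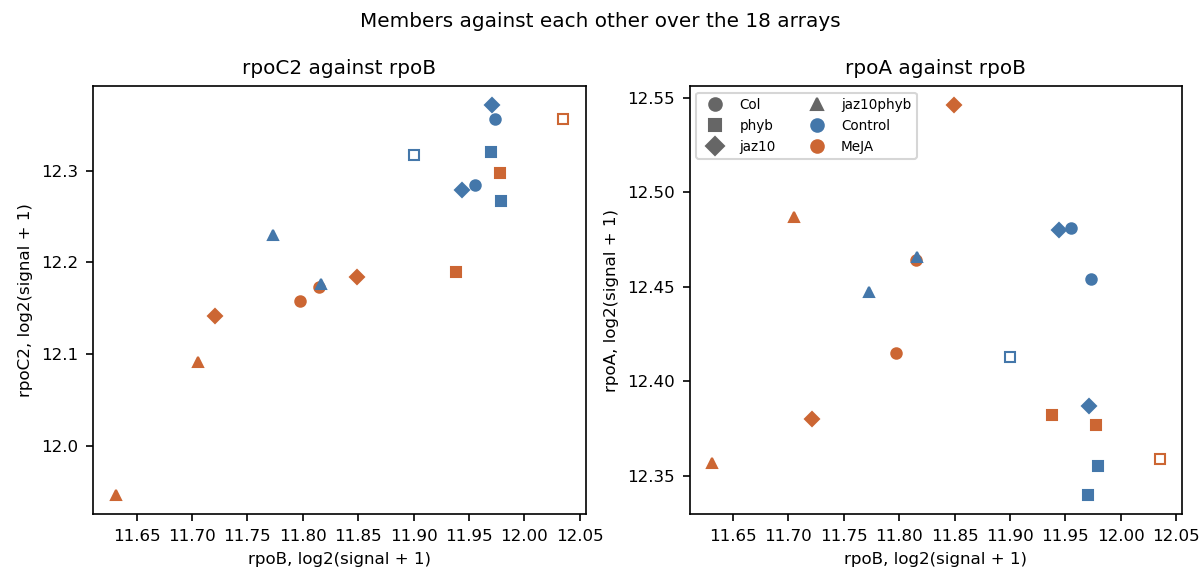
Log2(signal + 1) of rpoC2 (left) and rpoA (right) against rpoB over the 18 arrays. Marker shape gives the genotype, blue is control, orange is MeJA, and open squares are phyb control 2 and phyb MeJA 3. The rpoC2 points rise with rpoB (correlation 0.901) and the rpoA points do not (-0.196).

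The operon genes were set against the 59 other plastid genes measured, whose mean log2 signal serves as a reference on the same array, so that centring an array does not alter the relative value. Relative to it, rpoB differed after MeJA by -0.17 in Col, -0.16 in jaz10, -0.11 in jaz10phyb and -0.03 in phyb, with overlap in phyb and in no other genotype. On this scale 35.9% of all genes tested were lower without overlap in Col, 35% in jaz10 and 36.6% in jaz10phyb, and 0.791% were higher in phyb. For rpoC2 the relative values were -0.16, -0.15 and -0.16, again without overlap, and -0.08 with overlap in phyb. For rpoC1 they were -0.15 and -0.11 in Col and jaz10phyb without overlap, 0 with overlap in jaz10, and 0.09 without overlap in phyb. Without the 2 doubtful arrays the relative values in phyb were -0.08 for rpoB, now lower without overlap (44.4% of all genes), -0.11 for rpoC2 with overlap and 0.12 for rpoC1, higher without overlap (16.3% of all genes). In control arrays jaz10phyb against Col stood at -0.2 for rpoB and -0.15 for rpoC2 relative to the other plastid genes. The 63 plastid genes were ordered from the most negative MeJA difference. In Col, jaz10 and jaz10phyb rpoB was number 3, 3 and 6, and rpoC2 number 5, 4 and 3. There rpoC1 was number 7, 30 and 8, and rpoA number 17, 51 and 23. In phyb rpoC2 was number 5, rpoB number 25 and rpoC1 number 61 with all arrays, and rpoC2 number 3, rpoB number 8 and rpoC1 number 61 without the doubtful ones. In mean signal the measured plastid genes ran from 974 to 15008, with 3766 for rpoB, 2977 for rpoC1 and 4815 for rpoC2. The highest signal of any probe set was 18014. Whether differences shrink at high signal, which would alter ranks and relative values, was not tested.

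Of the other plastid families, those of the photosystems, the cytochrome b6f complex, the ATP synthase and the ndh genes had median differences above 0 in Col. The median MeJA difference in Col was 0.04 for 13 photosystem II genes and 0.01 for 7 photosystem I genes. It was 0.04 each for 6 cytochrome b6f and 4 ATP synthase genes and 0.02 for 10 ndh genes. For 7 genes of the small ribosomal subunit it was -0.05, for 6 of the large one -0.02 and for 5 remaining genes -7e-04. The difference of rbcL was -0.035. These values stand beside -0.15 for the polymerase genes and -0.02 over all genes. The median of the 59 other plastid genes was 0.02 in Col, 2e-04 in jaz10, -0.02 in jaz10phyb and 0.05 in phyb. The numbers of these genes below 0 were 21, 29, 36 and 8. Medians of the ATP synthase and ndh genes were below 0 in jaz10 and jaz10phyb. In phyb every family median was above 0. No plastid gene passed limma's adjusted p of 0.05 in any of the 4 MeJA comparisons, with or without the doubtful arrays. The small-subunit genes had negative differences in 6 of 7 cases in Col, 7 of 7 in jaz10 and in jaz10phyb, and 2 of 7 in phyb, where 52.6%, 57.2%, 62.6% and 59% of all genes tested were negative. Their most negative member was rps18 in Col (-0.32 ± 0.12) and rps16 in jaz10 (-0.3 ± 0.12) and jaz10phyb (-0.27 ± 0.12). At the other end psbT, a small photosystem II subunit gene, was at 0.54 ± 0.33 in Col, beside a SE of 0.085 for rpoB.

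**Figure D5:**
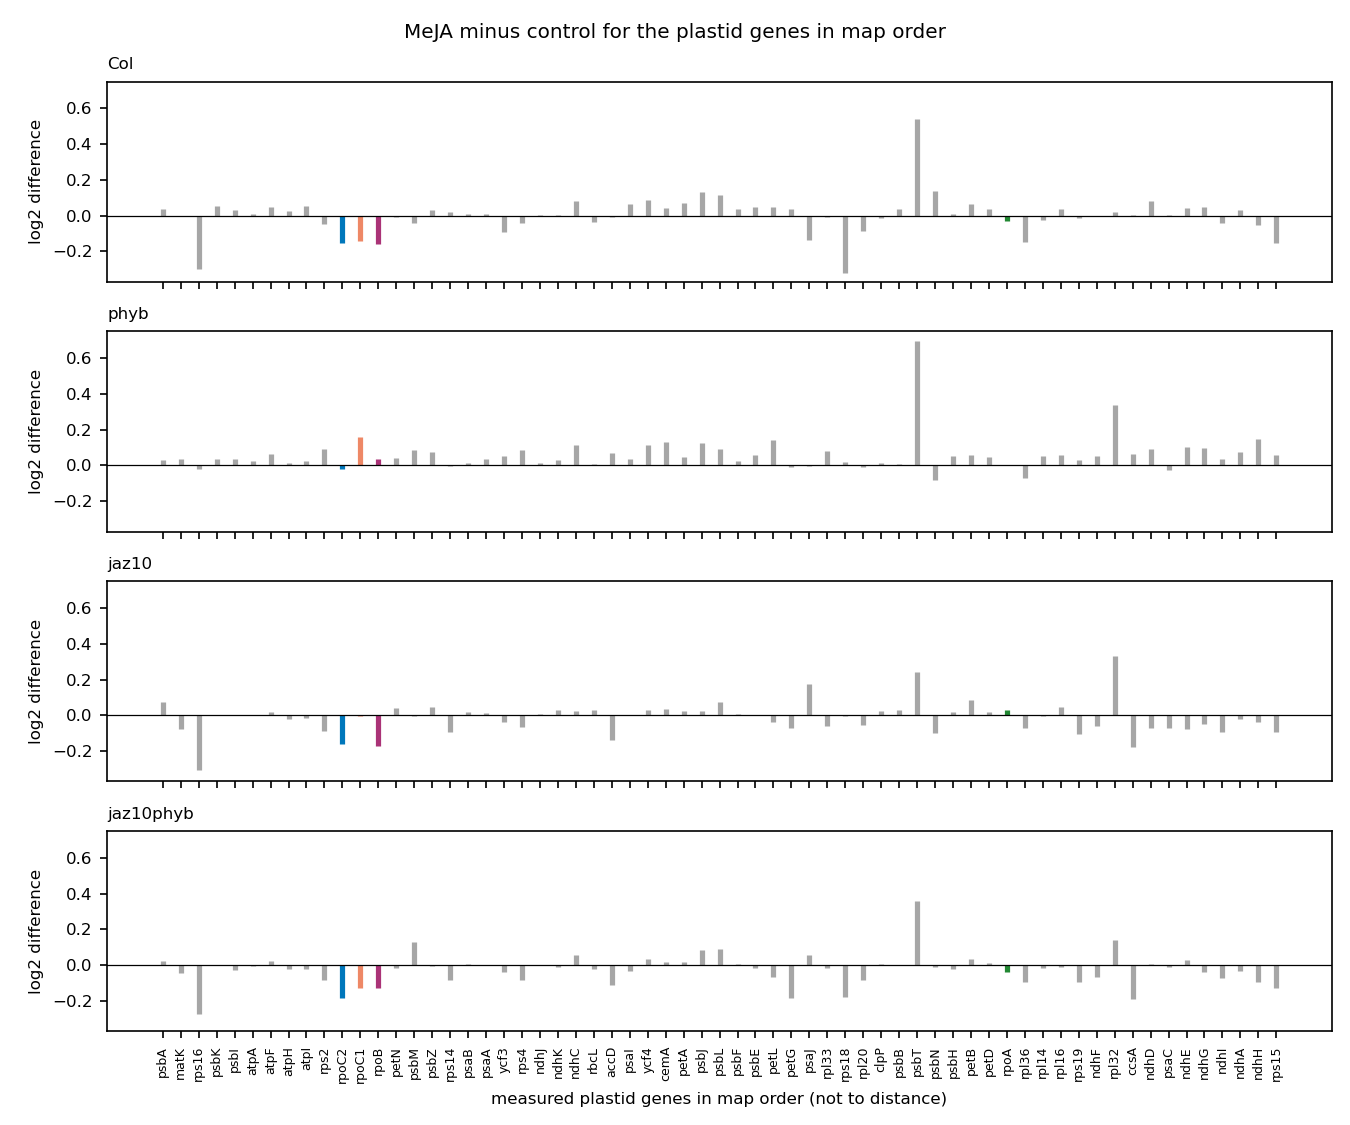
Log2 difference between MeJA and control arrays (vertical axis) for the 63 measured plastid genes in their order along the plastid, with all arrays and no error shown. Coloured bars are rpoC2 (blue), rpoC1 (orange), rpoB (magenta) and rpoA (green). The operon genes stand together below 0 in Col and jaz10phyb, while petN beside rpoB is at -0.01 and -0.02 there, and petD beside rpoA at 0.04 and 0.01.

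Over the 18 arrays the mean of the 4 genes correlated at 0.907 with rpoB, 0.831 with rpoC1 and 0.87 with rpoC2, but at 0.111 with rpoA. Likeness to this mean is thus mostly likeness to the operon genes. The gene most like it was rps2, the neighbour of rpoC2 on the map, which encodes a protein of the small plastid ribosomal subunit. The correlation of rps2 with the mean was 0.893, and 0.886 without the doubtful arrays, while with rpoA alone rps2 had 0.21. Next among 59 plastid candidates came other small-subunit genes, rps15 (0.83), rps16 (0.777), rps4 (0.752) and rps19 (0.727). Without the doubtful arrays these had 0.836, 0.796, 0.806 and 0.704. In rps2 the signals were 6072 and 6264 in Col control arrays and 5793 and 6144 after MeJA, so these groups overlapped. The rps2 differences after MeJA were -0.05 ± 0.089 in Col, -0.09 ± 0.089 in jaz10, -0.08 ± 0.089 in jaz10phyb and 0.09 ± 0.073 in phyb, and none passed limma (adjusted p = 0.741, 0.544, 0.622 and 0.962). Among the 5627 other genes the highest correlations lay below those of rps2 and rps15, at 0.793 for AT2G45700, 0.786 for DCP5-L, 0.778 for AT3G27325, 0.777 for AT3G42050 and 0.773 for AT5G56890, and without the doubtful arrays at 0.776, 0.811, 0.763, 0.765 and 0.751. These are maxima over many candidates and carry no p.

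Lists drawn up around plastid transcription held 23 nuclear genes: 6 sigma factors, 14 proteins associated with the plastid-encoded polymerase and 3 phage-type polymerases. The phage-type polymerases were listed whether or not they act in plastids. Of these 23, 1 had a probe set paired with it alone. It is AT5G15700, put on the phage-type polymerase list from general knowledge, and the annotation used here gives it no symbol. The others were not analysed here, among them the phage-type polymerases AT2G24120 and AT1G68990. Whether AT5G15700 transcribes the rpoB operon was not tested. AT5G15700 had signals of 66.8 and 80.03 in Col control arrays and 112.9 and 134.9 in Col MeJA arrays, and 66.3 and 83.1 against 95.8 and 111.9 in jaz10. In jaz10phyb it had 97.2 and 78.8 in control arrays and 91.1 and 90.6 after MeJA, and in phyb 75.97, 121.8 and 64.9 against 120.05, 99.1 and 81.7. The MeJA arrays were the higher ones in Col and jaz10 and overlapped the control arrays in phyb and jaz10phyb. Of all genes tested, 30.6% were higher without overlap in Col and 24.6% in jaz10. Without the 2 doubtful arrays the phyb MeJA arrays (120.05 and 99.1) lay above the phyb control arrays (75.97 and 64.9). There 23% of all genes tested were higher without overlap.

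The MeJA difference of AT5G15700 in Col was 0.75 ± 0.25 (limma adjusted p = 0.0588, n = 2 arrays per group), and with the same difference the limma adjusted p was 0.00344 without the 2 doubtful phyb arrays. It was 0.47 ± 0.25 in jaz10 (limma adjusted p = 0.234, and 0.0465 without those arrays) and 0.05 ± 0.25 in jaz10phyb (0.919 and 0.863). In phyb it was 0.23 ± 0.21 with all arrays (limma adjusted p = 0.962, n = 3 arrays per group) and 0.63 ± 0.16 without the doubtful ones (limma adjusted p = 0.0169). Without them 31.1% of all genes were called in Col, 24.6% in jaz10, 18.6% in jaz10phyb and 16.3% in phyb. When 1 array at a time was left out, the adjusted p for Col lay between 0.0131 and 0.254. Those 2 arrays were doubted for their MeJA response, so calls made without them are no independent evidence of it in phyb.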

How the data were processed

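Signal intensities on a linear scale, 1 value per probe set and array, were deposited by the authors; the submitters' processing notes name Affymetrix Expression Console. Version, summarisation and genome build were not given in the sources used here, and the spread of values shows that they are not log-transformed. The deposited table holds 38408 probe sets. A platform annotation pairs 16722 with 1 gene, 759 with several and 20927 with none listed, and the TAIR10.1 table, used for names and gene order only, matched 16574 of the former. Groups come from the sample titles.

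Intensities were turned into log2(value + 1). Genes without a signal of 50 on some array were dropped, and a gene with several probe sets was taken at its brightest. All 4 polymerase genes passed. A linear model of 8 group means (limma 3.58.1, R 4.3.3) was fitted to all 18 arrays (10 residual degrees of freedom), with Benjamini-Hochberg adjustment over 5690 genes. It was also run on simulated data with changes larger than those of the polymerase genes, so that run does not bear on them. Array number, 2 or 3 per group, limits precision.

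Genes, lists and tests were chosen with earlier results of these data known. Named were the polymerase genes, listed partners with a probe set, extreme members of plastid lists, and the 5 genes most correlated with the polymerase mean, within and outside the plastid. petN, petD, psbA and rbcL were named in addition, as map neighbours and tissue markers. Alternatives were other filters, a pseudocount of 16, centring, quantile normalization, all probe sets, a replicate block, and arrays left out.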

Additional observations from a re-analysis of the deposited data

Results flagged for a closer look

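After MeJA, rpoC1 moved in opposite ways in phyb and in 2 other genotypes, with every array on its side. Of all genes tested, 34.9% were lower without overlap in Col and 38.3% in jaz10phyb, and 2.36% were higher in phyb. The difference between the phyb and the Col response was 0.299 on the log2 scale (0.16 in phyb and -0.14 in Col), and that between the jaz10phyb and the phyb response was -0.28 (-0.12 in jaz10phyb). These differences were not tested. Without phyb control 2 and phyb MeJA 3 the phyb response was 0.19, still without overlap, where 23% of all genes were higher. With all arrays, 8 of the 59 other plastid genes were below 0 in phyb, beside 21 in Col and 36 in jaz10phyb. Among them rps2 and rps15 had the same signs as rpoC1 in these genotypes. The nearest control and MeJA arrays of jaz10phyb, at 2866 and 2864.5, were almost level.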

How the results depend on the processing

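No polymerase gene passed limma's adjusted p of 0.05 in any setting tried. Of 320 differences of these genes recomputed under 8 other settings, 289 lay within 1 SD of the value reported, as did 152 of 176 with 1 array left out. Many of the 320 could not move. Each gene has 1 probe set that passes every filter, so filters and the use of all single-gene probe sets leave its differences unchanged. The replicate block and leaving out the 2 phyb arrays changed only comparisons with phyb. Those beyond 1 SD came from centring, quantile normalization and, for rpoB after MeJA in phyb, the 2 arrays left out. A pseudocount of 16 left the mean of the 4 genes within 1 SD in all 10 comparisons. In the lists that follow the order is MeJA in Col, phyb, jaz10 and jaz10phyb, then phyb, jaz10 and jaz10phyb against Col in control arrays, then the same after MeJA. With all arrays limma called 837, 0, 497, 2, 27, 0, 13, 55, 3 and 28 genes, and 1771, 926, 1400, 1058, 58, 2, 79, 160, 5 and 185 once phyb control 2 and phyb MeJA 3 were left out. With no filter on low signal (16550 genes) it called 213, 1, 127 and 0 for MeJA and 34, 0 and 4 after MeJA. With a signal of at least 100 (3542 genes) the count was 0 for MeJA in jaz10phyb and 1 for jaz10 in control arrays. Quantile normalization gave 23 for jaz10phyb in control arrays, and centring gave 0 for jaz10 after MeJA. Leaving out 1 array gave 0 to 1417, 0 to 0, 0 to 1026, 0 to 547, 2 to 38, 0 to 2, 3 to 22, 8 to 164, 0 to 3 and 2 to 64 genes, with 0 for MeJA in Col without Col control 2 and without Col MeJA 2. Whether the array numbers pair the samples could not be decided. Deviations of control and MeJA arrays with the same number correlated at 0.0938 in Col, -0.0195 in jaz10 and 0.0998 in jaz10phyb. With 2 arrays per group, such low values cannot exclude pairing. In phyb they were -0.721, 0.452 and 0.602 for arrays 1, 2 and 3. These phyb values rest on group means that hold phyb control 2 and phyb MeJA 3, so nothing is read from them. With a replicate block the counts were 923 and 392 for MeJA in jaz10 and jaz10phyb, 58 for phyb in control arrays, and 24 and 1 for phyb and jaz10 after MeJA, with 0 of the polymerase genes, and the adjusted p of AT5G15700 for MeJA in Col was 0.0214 in place of 0.0588. When arrays were centred, the mean difference of the 4 genes turned from -0.078 to 0.015 for MeJA in jaz10 and from -0.08 to 0.089 for jaz10phyb after MeJA, moved from -0.12 to -0.21 for MeJA in Col and from -0.12 to -0.043 in jaz10phyb, and was -0.052 for jaz10 in control arrays and 0.25 and 0.17 for phyb and jaz10 after MeJA. Quantile normalization gave -0.066 for MeJA in Col and turned jaz10 after MeJA from 0.038 to -0.017. With 1 array left out the mean lay between -0.13 and -0.021 for MeJA in jaz10, -0.19 and -0.048 in jaz10phyb, -0.019 and 0.094 for jaz10 after MeJA, and -0.15 and -0.010 for jaz10phyb after MeJA. AT5G15700 after MeJA in jaz10phyb lay between -0.097 (without jaz10phyb control 2) and 0.204. Centring adds the change of the array medians by construction; other causes were not tested. With 2 arrays in most groups, small differences are not resolved.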
